A study of Mus musculus with 4 samples.

Results

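Homeostatic-gene-positive barcodes of the EAE spinal cord were examined as a group of cells defined by 5 transcripts of resting microglia, Tmem119, P2ry12, Olfml3, Siglech and Sall1. A barcode, which marks 1 droplet, was a member when it held at least 2000 unique molecular identifiers (UMIs, each counting 1 captured transcript), under 10% mitochondrial UMIs, and a UMI sum of at least 4 over the 5 genes. It also needed at least 5 UMIs of the myeloid genes Tyrobp, Fcer1g and Ctss, at most 2 of the endothelial genes Cldn5, Cdh5, Egfl7 and Esam, and at most 1 of the T cell genes Cd3e, Cd3d, Cd3g and Lat. This gave 1869 members among 9717 barcodes in the myeloid gate and 26525 barcodes that passed the UMI and mitochondrial limits. The 6925 barcodes in the same gate with a 5-gene sum of 0 or 1 are called other myeloid barcodes, and the 923 with a sum of 2 or 3 belong to neither group.

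All mice had experimental autoimmune encephalomyelitis (EAE), induced with a MOG peptide in complete Freund's adjuvant and pertussis toxin, and there was 1 library for each of 4 conditions. The mIgG1 library came from C57Bl/6JOlaHsd mice given a control mouse IgG1, and the Ang2 Ab library from mice of that strain given an antibody that blocks angiopoietin-2 (Ang2), in each case from immunization until collection at 14 days post immunization, at 15 weeks of age. The Ctrl library came from single transgenic littermates, and the EC-Ang2 library from double transgenic mice in which the VE-cadherin promoter drives a tetracycline-responsive transactivator and thereby Ang2 in endothelial cells, with the transgene held off by doxycycline food until birth; both were collected at 12 days, at 12 to 14 weeks of age, after a lower dose of pertussis toxin. Live CD45+ and CD31+ cells of the spinal cord were sorted in equal numbers after enzymatic digestion and myelin removal, so that a sort for CD45 lies between the tissue and every share given here. The number of mice behind each library is not given in the sources used here. The antibody pair and the transgenic pair differ in strain, transgene, antibody treatment, doxycycline food before birth, age, day and toxin dose, and these cannot be told apart.

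Microglia are the resident macrophages of the CNS. At rest they survey the tissue through receptors such as the fractalkine receptor Cx3cr1 and the purine receptor P2ry12, depend on signals through the CSF1 and TGF-beta receptors, and make most of the complement C1q of the CNS. In EAE, monocytes enter the spinal cord and become macrophages that share many genes with microglia, while microglia themselves reduce their homeostatic genes, so that the groups are told apart by transcripts such as the 5 used here rather than by general myeloid markers. Siglech is also a gene of plasmacytoid dendritic cells.

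Because each condition is a single library, no test between conditions was made. Levels are UMIs summed over the barcodes of a group in 1 library, per 1000000 UMIs of that group (CPM), and differences are log2 ratios of these levels. The 95% intervals are exact binomial ones. They hold the error of counting alone and say nothing of how mice vary. Because the members were chosen on transcripts of these same barcodes, their contrast with other myeloid barcodes is described without a test.

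The mIgG1 library held 66631583 UMIs, Ang2 Ab 57954609, Ctrl 52084739 and EC-Ang2 52796061. Where 4 values follow each other without names, they are in this order of libraries. In mIgG1, 327 of 2558 gated myeloid barcodes were members (12.8%, exact binomial interval 11.5% to 14.1%). Ang2 Ab had 398 of 2810 (14.2%, 12.9% to 15.5%), Ctrl had 1017 of 2195 (46.3%, 44.2% to 48.4%), and EC-Ang2 had 127 of 2154 (5.9%, 4.94% to 6.98%). The Ctrl library therefore held 1017 of the 1869 members, and the share was lowest in EC-Ang2. Member barcodes were shared by at most 2 between any pair of libraries.

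Depth differed between the libraries in a way that touches the gate itself, because a fixed sum of 4 UMIs is easier to reach in a deep barcode. Members had a median of 10989 UMIs in the mIgG1, 8927.5 in the Ang2 Ab, 6059 in the Ctrl and 9863 in the EC-Ang2 library, against 6649, 5385, 6743.5 and 7135.5 in other myeloid barcodes. Their 5-gene sum had a median of 7 in the mIgG1, 13 in the Ang2 Ab, 21 in the Ctrl and 7 in the EC-Ang2 members. After each barcode had been thinned at random to 2000 UMIs, the medians were 2, 3, 6 and 2. The sum fell to 0 or 1 at that depth in 45.0% of the mIgG1, 23.4% of the Ang2 Ab, 6.59% of the Ctrl and 39.4% of the EC-Ang2 members. Members that kept a sum of at least 4 at 2000 UMIs are called depth-matched members, an alternative chosen after seeing the data. This name refers to the gate, which was read at 1 depth in every library. Their own depth still differed, with medians of 7993.5 UMIs in the mIgG1, 7663 in the Ang2 Ab, 5490.5 in the Ctrl and 6610 in the EC-Ang2 library, and their levels were taken from all of their UMIs. In mIgG1 there were 78 of them (3.05% of gated myeloid barcodes, 2.42% to 3.79%). Ang2 Ab had 187 (6.65%, 5.76% to 7.64%), Ctrl had 794 (36.2%, 34.2% to 38.2%), and EC-Ang2 had 41 (1.9%, 1.37% to 2.57%).

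**Figure D1:**
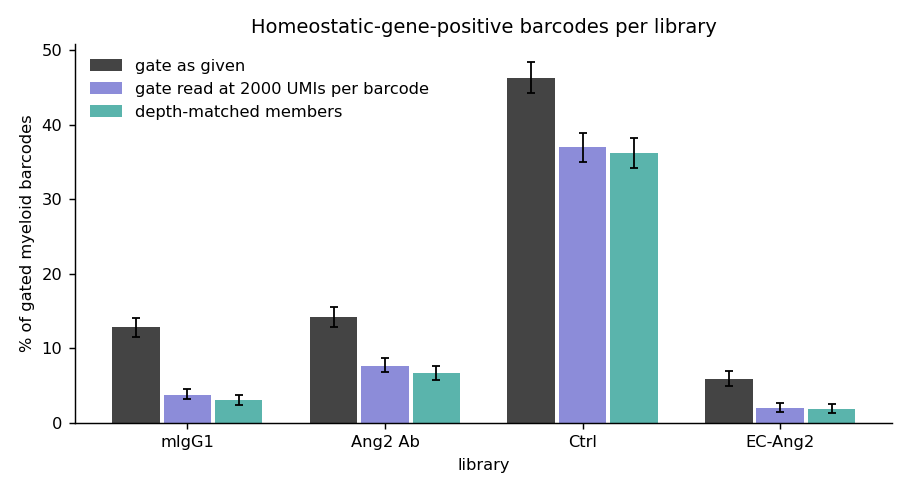
Share of gated myeloid barcodes (y axis, %) that were members in each library (x axis), for the gate as given, for the same gate read after thinning each barcode to 2000 UMIs, and for depth-matched members; bars are shares and whiskers are exact 95% binomial intervals of counting error. Ctrl was highest and EC-Ang2 lowest in each of the 3 versions, while mIgG1 and Ang2 Ab had overlapping intervals in the first version only.

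The label of microglia held for most members of Ctrl but for fewer in the other libraries. UMIs of at least 2 of 6 monocyte and macrophage genes (among them Ly6c2, Ccr2 and Chil3) at 2000 UMIs were present in 59.3% of the mIgG1, 44.5% of the Ang2 Ab, 18.7% of the Ctrl and 53.5% of the EC-Ang2 members. The corresponding shares of other myeloid barcodes were 85.0%, 87.3%, 74.6% and 87.8%. Among depth-matched members they were 37.2%, 27.3%, 10.3% and 26.8%. In mIgG1 and EC-Ang2, where the larger share of the members carried monocyte transcripts, the members are therefore best called by their rule. Depth-matched values are given below for most gene lists and for some of the leading genes.

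Another departure from the label lay with plasmacytoid dendritic cells. At least 2 of 10 of their markers were detected at 2000 UMIs in 10.1% of the mIgG1, 6.03% of the Ang2 Ab, 2.65% of the Ctrl and 5.51% of the EC-Ang2 members, and in 1.08%, 0.594%, 0.293% and 0.214% of other myeloid barcodes. Siglech alone carried the gate in 17, 11, 4 and 5 members. Summed over the 10 markers, the level in members was 415 CPM in the mIgG1, 422 in the Ang2 Ab, 219 in the Ctrl and 485 in the EC-Ang2 members, and the most abundant was Ly6d in the antibody pair and Cox6a2 in the transgenic pair. Restriction to depth-matched members raised the share with these markers to 23.1% in mIgG1 (18 barcodes), against 4.81%, 2.27% and 4.88% in the others. Cycling members, with UMIs of 3 or more of 12 cell cycle genes at 2000 UMIs, made up 2.45%, 12.3%, 17.0% and 14.2%, against at most 0.879% of other myeloid barcodes.

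Markers of other lineages were low in members. Endothelial markers outside the gate summed to 665 CPM in the mIgG1, 729 in the Ang2 Ab, 653 in the Ctrl and 558 in the EC-Ang2 members, against 12330, 12800, 13260 and 13330 in near-empty droplets with at most 100 UMIs. From these, free RNA released by broken cells was estimated at 5.39%, 5.69%, 4.93% and 4.18% of the UMIs in members. The estimate takes all UMIs of these endothelial markers in members as free RNA. For single genes it is rough, since it would give 1120% of the Fabp4 level in mIgG1 members and 5610% in Ctrl members. B cell markers summed to at most 17.9 CPM, mural cell markers to at most 18.5 CPM and neuronal markers to at most 5.94 CPM, with Syt1 at 0 UMIs in all 4 libraries. Neutrophil markers stood apart in Ctrl, at 3757 CPM against 379 in mIgG1, 755 in Ang2 Ab and 786 in EC-Ang2, most of it S100a8 and S100a9.

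Of the 5 gate genes, Olfml3, a secreted olfactomedin-like protein, was detected in the most members, 92.0% in the mIgG1, 93.5% in the Ang2 Ab, 98.3% in the Ctrl and 85.0% in the EC-Ang2 members. P2ry12 was detected in 49.2%, 67.6%, 85.0% and 56.7%, and Sall1, the transcription factor that maintains microglial identity, in 14.4%, 17.1%, 17.1% and 11%. At the Tmem119 gene (mm10 chr5:113793729-113800516, minus strand), the level in members was 262 CPM in the mIgG1, 441 in the Ang2 Ab, 813 in the Ctrl and 350 in the EC-Ang2 members. Depth-matched members had 542, 657, 986 and 718 CPM. Just outside the threshold, barcodes with a sum of 3 had 5403, 5876, 10585 and 4101 CPM over the 30 homeostatic genes that the gate did not use. Just inside it, those with a sum of 4 had 5352, 9369, 13497 and 6733 CPM, so that in mIgG1 the barcodes on both sides of the threshold had nearly the same level.

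Across all gated myeloid barcodes, levels changed by degrees with the 5-gene sum at 2000 UMIs. The gate was set on the sum before thinning, so that members also fall in the lower bins. Whether levels step at the threshold therefore cannot be read from these bins. In Ctrl, the 30 homeostatic genes rose from 5589 CPM at a sum of 0 or 1 through 24193, 35458 and 42847 CPM to 62777 CPM at a sum of 10 or more. Complement genes followed the same order, from 4474 to 33618 CPM. The MHC class II list fell from 24773 to 2155 CPM over the same bins, and the monocyte list from 12835 to 253 CPM. At a sum of 6 to 9, where Ctrl had 331 barcodes, Ang2 Ab 80, mIgG1 24 and EC-Ang2 16, homeostatic genes stood at 42847 CPM in Ctrl, 29206 in Ang2 Ab, 21146 in mIgG1 and 25719 in EC-Ang2. The highest bin held only 3 mIgG1 and 2 EC-Ang2 barcodes. MHC class II at a sum of 6 to 9 was 18625 CPM in mIgG1 and 5381, 3464 and 3625 CPM in Ang2 Ab, Ctrl and EC-Ang2.

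**Figure D2:**
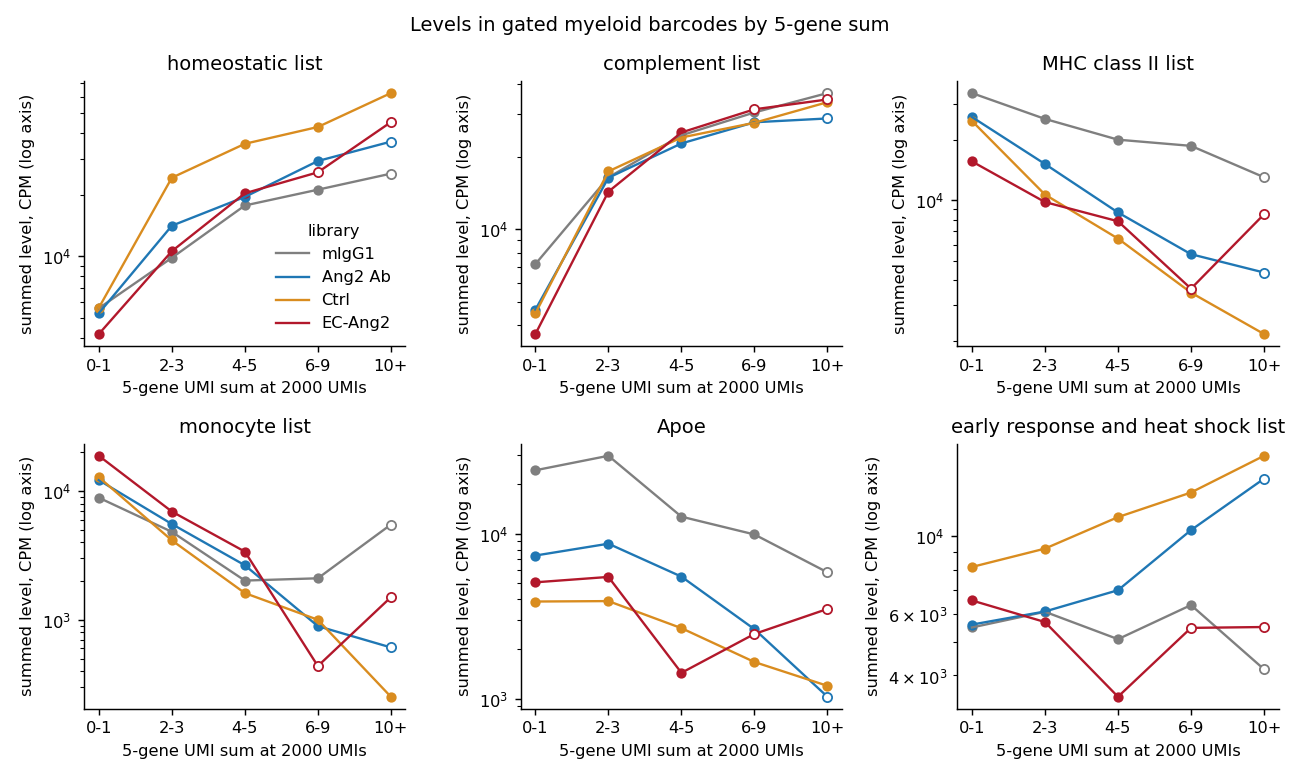
Summed level (y axis, CPM on a log axis) of 5 gene lists and of Apoe in all gated myeloid barcodes, by their 5-gene UMI sum after thinning to 2000 UMIs (x axis), 1 line per library; open points are bins of fewer than 20 barcodes. Homeostatic genes rose with the sum in every library (in Ctrl from 5589 to 62777 CPM), and MHC class II was highest in mIgG1 in every bin.

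Members were first compared with other myeloid barcodes of the same library. Among 5792 genes detected in 10% of one or the other group in every library, 217 (3.75%) were at least 2-fold higher in members in all 4 libraries and 86 (1.48%) at least 2-fold lower. Since the rule chose the members on this contrast, these numbers describe the gate. The median log2 ratio of all 5792 genes was 0.19, and values below are to be read against it. For depth-matched members, 414 of 5474 genes (7.56%) were higher and 248 (4.53%) lower. Without the mIgG1 library, the counts for all members were 430 higher and 186 lower.

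The highest ratios belonged to Npnt, Nav3, Slc1a3, Lrrc3, Gpr34, Capn3, Tspan7, Tanc2, Fcrls and Lag3. Npnt, which encodes the matrix protein nephronectin, stood at 19.3 CPM in the mIgG1, 37.7 in the Ang2 Ab, 35.4 in the Ctrl and 21.4 in the EC-Ang2 members, and at no more than 0.520 CPM in other myeloid barcodes. Its mean log2 ratio was 7.08 ± 0.85 (SD over 4 libraries). Slc1a3, a glutamate transporter that is also an astrocyte marker, had 21.6, 28.6, 37.4 and 18.5 CPM and a ratio of 6.46 ± 0.64. Of 8 astrocyte markers only Slc1a3 and Aldoc were detected widely enough to be compared. Aldoc had a mean ratio of −0.42 ± 0.59, with 0.35 in Ctrl, and Aqp4 was at 0 UMIs in mIgG1 and EC-Ang2. Lag3, a receptor best known on T cells, had a ratio of 4.98 ± 0.44, while Il7r, the most abundant T cell marker outside the gate in 3 of the 4 libraries, had −1.14.

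**Figure D3:**
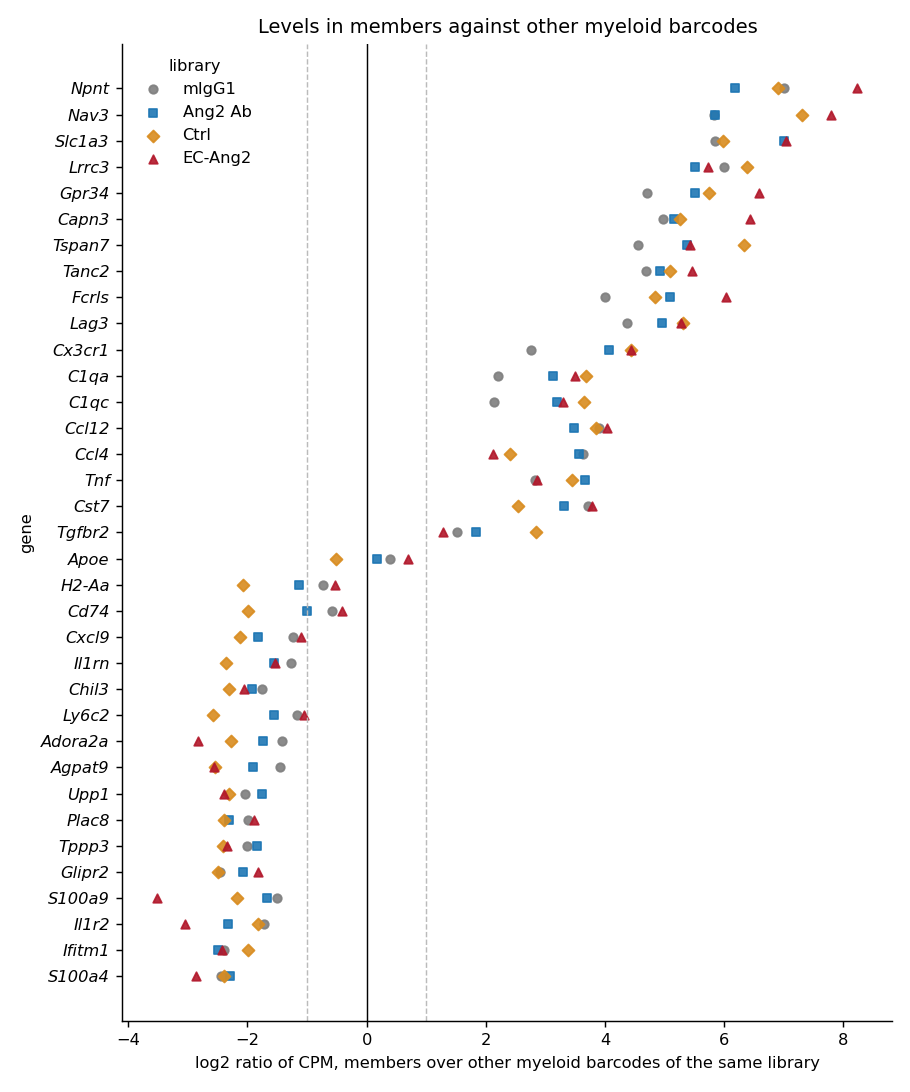
Log2 ratio of CPM in members over other myeloid barcodes of the same library (x axis) for single genes (y axis), 1 symbol per library; dashed lines mark 2-fold. Ratios of Npnt lay between 6.18 and 8.23 and those of S100a4 between −2.86 and −2.29, whereas Apoe lay on both sides of 0.

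Homeostatic genes outside the gate gave the largest group, with 21 of 29 measured members at least 2-fold higher in every library and none lower (median log2 ratio 2.51). Fcrls, an Fc receptor-like gene of mouse microglia, was at 140.3 CPM in the mIgG1, 425 in the Ang2 Ab, 970 in the Ctrl and 182 in the EC-Ang2 members, and at 8.75, 12.5, 34 and 2.76 CPM in other myeloid barcodes. Cx3cr1 had 367, 491, 630 and 298 CPM and a ratio of 3.92 ± 0.79. Its ratio was smallest in mIgG1, at 2.76. The genes that did not pass included Csf1r, Trem2 and Selplg, with mean ratios of 1.5, 1.76 and 1.27, and Cd33 was the lowest at 0.06. With depth-matched members, 27 of 30 passed and the median was 3.23.

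At 2000 UMIs, Cx3cr1 was detected in 45.3% of the mIgG1, 52.5% of the Ang2 Ab, 60.1% of the Ctrl and 29.9% of the EC-Ang2 members, and in 9.47%, 4.66%, 4.59% and 2.09% of other myeloid barcodes. T cell barcodes, which should lack it, had 2.42%, 0%, 0.685% and 1.23%, at median depths of 3364, 3502, 3978.5 and 4187 UMIs before thinning. Without thinning, 74.0%, 80.9%, 80.3% and 59.8% of members held a Cx3cr1 UMI.

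Transcription factors and the receptors that maintain microglia were next. Bhlhe41, a helix-loop-helix repressor, had a mean ratio of 3.19 ± 1.52 and Mef2c one of 2.75 ± 0.63, and 4 of 14 measured transcription factors passed, with none lower (5 of 15 for depth-matched members). Mef2c stood at 98.1, 180, 252 and 127 CPM in members. Irf8 did not pass (0.80 ± 0.24), and Cebpb was the lowest at −0.55. In the TGF-beta pathway 3 of 9 genes passed, the receptors Tgfbr2 (1.87 ± 0.69) and Tgfbr1 (1.78 ± 0.40) and the inhibitory Smad7 (1.36 ± 0.50), while the ligand Tgfb1 was at −0.49, and 3 of 9 passed for depth-matched members too. None of 9 genes of the CSF1 receptor pathway passed, among them Csf1r, whereas 2 of 9 did for depth-matched members, with Csf1r the highest at 1.96.

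All 3 chains of C1q, the recognition molecule of the classical complement pathway, were higher in members. C1qa stood at 6353 CPM in the mIgG1, 6739 in the Ang2 Ab, 7750 in the Ctrl and 5927 in the EC-Ang2 members, and at 1381, 772, 606 and 526 CPM in other myeloid barcodes. The mean ratios were 3.13 ± 0.66 for C1qa, 2.54 ± 0.72 for C1qb and 3.07 ± 0.65 for C1qc. Their genes lie side by side on the minus strand of chromosome 4, C1qb at mm10 chr4:136880129-136886187, C1qc at chr4:136889804-136893065 and C1qa at chr4:136895917-136898803. C4b (1.84 ± 0.57) was also among the 5 of 12 complement genes that passed. C3, the central component, was at 152, 83.1, 39.7 and 67.6 CPM in members, with a mean ratio of −1.45, and Cfp, properdin, had −1.40, neither of them 2-fold lower in all 4 libraries. For depth-matched members, 5 of 12 complement genes were again higher, but 3 were lower in all 4 libraries, among them C3 (−2.41) and Cfp (−3.15).

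Promoter sequences were searched for GAGGAAGT, a core that PU.1 (Spi1), the factor common to all myeloid cells, is known to bind, on both strands of the 250 bases before the start site. The windows come from RefSeq on GRCm38.p6. They held the motif in 802 of 32851 windows (2.44%) and for 164 of 4522 tested genes with a window (3.63%). It was present for 11 of 163 genes that were higher in members in all 4 libraries (6.75%) and for 5 of 68 that were lower (7.35%), so that its share was similar in both directions. None of the 4 gate genes with a window held it, and 1 of 20 homeostatic, 1 of 9 complement and 1 of 10 monocyte genes did. A stretch of each of these 3 genes is shown because they stand on both sides of the contrast, Adora3 (an adenosine receptor) and C1qc higher in members and Ly6c2 lower. Each is read 5′ to 3′ on the strand of its gene, with the motif or its reverse complement in capitals.
Adora3, chr3:105904375-105904414, plus strand: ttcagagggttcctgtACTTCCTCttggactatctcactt
C1qc, chr4:136893086-136893125, minus strand: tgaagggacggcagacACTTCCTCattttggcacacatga
Ly6c2, chr15:75112056-75112095, minus strand: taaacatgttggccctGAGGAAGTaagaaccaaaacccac
Ly6c2 held another match, which begins 8 bases before an annotated start and is not printed. A match is a description of these letters and says nothing of binding in these cells. In the data, Adora3 was at 14.6, 32.5, 63.1 and 32 CPM in members, with a mean ratio of 3.04 ± 0.44, and Ly6c2 at 559, 533, 277 and 1365 CPM, with a mean ratio of −1.59 ± 0.69. Reads of Ly6c2 can be shared with its near-identical neighbour Ly6c1.

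Chemokines were split in members. Ccl12, a monocyte-attracting chemokine, had 435 CPM in the mIgG1, 992 in the Ang2 Ab, 2842 in the Ctrl and 1066 in the EC-Ang2 members and a mean ratio of 3.81 ± 0.24, the steadiest of the group. Ccl4 (2016, 5870, 6451 and 2712 CPM, ratio 2.93 ± 0.78) and Ccl3 (721, 1831, 3251 and 1167 CPM, ratio 2.61 ± 0.45), which share receptors on T cells and macrophages, also passed. Cxcl9 and Cxcl2, which attract T cells and neutrophils, were lower, with ratios of −1.57 ± 0.49 and −1.46 ± 0.40. The remaining 6 of 11 chemokines did not pass. For depth-matched members 4 were higher and 2 lower, and the median of the list moved from 0.17 to −0.31. Among 11 cytokine genes, Tnf passed with 103, 414, 938 and 218 CPM in members and a ratio of 3.20 ± 0.42. Il1rn, the interleukin 1 receptor antagonist, was lower (−1.68 ± 0.47), and Il1b had −1.0 ± 0.32 without passing. In all, 2 cytokine genes were higher and 1 lower, and 3 and 2 for depth-matched members.

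Genes of damage-associated microglia, the state described around plaques and lesions, had 4 of 23 higher, 1 lower and a median ratio of 0.36. For depth-matched members 7 were higher and 4 lower, with a median of 0.52. The highest was Cst7, a cystatin, at 285 CPM in the mIgG1, 167 in the Ang2 Ab, 108 in the Ctrl and 283 in the EC-Ang2 members, with 16.8 to 21.8 CPM in other myeloid barcodes and a ratio of 3.34 ± 0.57. Ccl6 was the lowest at −1.45 ± 0.24. Apoe, the main lipid carrier of the CNS, had a ratio of 0.18 ± 0.51 and lay on both sides of 0, as did Spp1 (−0.46 ± 0.82). For depth-matched members both were below 0 in all 4 libraries, with mean ratios of −0.95 and −1.25. Of 14 lipid genes 2 passed, among them the fatty acid receptor Cd36, at 54.7, 95.8, 40.1 and 68.3 CPM in members and a ratio of 2.82 ± 0.51. For depth-matched members 2 lipid genes were higher and 3 lower. Gas6, the ligand of the phagocytic TAM receptors, had 39.6, 72.7, 139.5 and 54.8 CPM and a ratio of 4.42 ± 0.72, and its receptor Mertk one of 1.74 ± 0.46.

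Antigen presentation and monocyte genes lay on the lower side. MHC class II had none of 11 genes higher and 3 lower, with a median of −1.09. H2-Aa was at 3057 CPM in the mIgG1, 1623 in the Ang2 Ab, 1006 in the Ctrl and 1675 in the EC-Ang2 members, against 5064, 3578, 4226 and 2405 CPM in other myeloid barcodes, and its ratio was past 2-fold in Ang2 Ab and Ctrl only. The lowest was H2-DMb2 (−1.78 ± 0.47) and the highest H2-Oa (0.13). No MHC class I gene and no interferon-induced gene passed in either direction (16 and 20 genes, medians −0.29 and −0.49). Of 11 monocyte markers measured, 6 were lower and none higher. Chil3, a chitinase-like protein of monocytes, had 712, 565, 179 and 1423 CPM in members and 2391, 2156, 885 and 5901 CPM in other myeloid barcodes (ratio −2.01 ± 0.23). The 10 lowest genes overall were S100a4, Ifitm1, Il1r2, S100a9, Glipr2, Tppp3, Plac8, Upp1, Agpat9 and Adora2a, with mean ratios from −2.50 to −2.07. For depth-matched members, 10 of 12 monocyte markers were lower, with a median of −3.16, and MHC class II stood at a median of −1.87.

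Ang2 and its receptors were looked for in members because the conditions change Ang2. Angpt2, the gene of Ang2, gave 7, 19, 10 and 16 UMIs in members, which is 1.80, 4.93, 1.24 and 11.4 CPM. The free RNA share alone would give 78.1%, 86.4%, 185% and 148% of these levels, so that at these counts Angpt2 could not be told from free RNA. Tek, which encodes the Ang2 receptor Tie2, gave 10, 10, 13 and 7 UMIs. Free RNA would give more than these in 3 libraries, and 54.9% of the 7 UMIs in EC-Ang2. Of the integrins that can bind Ang2, Itga5 stood at 25.7, 31.7, 35.4 and 25.6 CPM and Itgb1 at 138, 137, 138 and 127 CPM, with mean ratios to other myeloid barcodes of −0.28 ± 0.16 and −0.14 ± 0.08. Itga6 and Itgb5 were higher in members in all 4 libraries (2.58 ± 0.79 and 2.51 ± 0.76), and Itga4 was the lowest of the 7 genes measured in this list at −1.16.

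The question of what accompanies Ang2 blockade was addressed by the Ang2 Ab library against mIgG1. Of 7054 genes with at least 50 UMIs in both libraries together, 210 (2.98%) were at least 2-fold higher in Ang2 Ab members and 62 (0.879%) at least 2-fold lower, with a median log2 ratio of 0.13. Among depth-matched members, 106 of 4781 (2.22%) were higher and 43 (0.899%) lower. Members with monocyte transcripts made up 59.3% of mIgG1 and 44.5% of Ang2 Ab, cycling members 2.45% and 12.3%, and members with markers of plasmacytoid dendritic cells 10.1% and 6.03%. The part of each in the differences was not tested beyond the values given without them.

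The highest ratio was that of Ccl24, an eosinophil-attracting chemokine, with 4 UMIs in mIgG1 and 458 in Ang2 Ab members (1.03 and 119 CPM, log2 ratio 6.86, interval 5.49 to 8.74). Its ratio in other myeloid barcodes of the same libraries was 6.17, and its level there, 391 CPM in Ang2 Ab, exceeded that in members. Ccl17, a chemokine of dendritic cells, had 33.9 and 223 CPM (2.72, 2.45 to 3.00), and Adamts1, a matrix protease, 8.74 and 61.3 CPM (2.81, 2.29 to 3.37). Among depth-matched members, Ccl24 had 1 and 64 UMIs (4.90, 2.37 to 10.2), Ccl17 had 3 and 187 UMIs (4.86, 3.29 to 7.15), and Adamts1 had a ratio of 2.02 (1.34 to 2.79). The free RNA share would give 73.6% of the Ccl24 level and 66.7% of the Adamts1 level in mIgG1 members, so that the size of both ratios is uncertain, and 12.3% of that of Ccl17. Scgb3a1 (2.39) and Hpgd (2.39) were also among the 10 highest. Scgb3a1 stood at nearly the same level in members and other myeloid barcodes (18 against 17.2 CPM in the mIgG1 library, 94.3 against 92.0 CPM in the Ang2 Ab library), and the free RNA share would give 122% and 62.1% of its level in members, so that its ratio is not read as a difference of members. For Hpgd the free RNA share would give 114% and 28.3%. The remaining 5 of the 10 were the cell cycle genes 2810417H13Rik, Tpx2, Top2a, Rrm2 and Ccnb1. Of 12 cycling genes, 11 were past 2-fold higher with a median ratio of 1.80. Among depth-matched members, which had cycling shares of 7.69% and 12.8%, 1 of 9 was past 2-fold higher and the median was 0.62.

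Of 15 chemokines, 8 were past 2-fold higher in Ang2 Ab members and 2 lower (median 1.19), but among depth-matched members only 2 of 12 were past 2-fold higher and 0 lower (median 0.72). Ccl4 had a level of 2016 CPM in the mIgG1 and 5870 CPM in the Ang2 Ab library (1.54, 1.5 to 1.58), Ccl3 at 721 and 1831 CPM (1.34, 1.28 to 1.41), and Cxcl10, an interferon-induced chemokine, at 228 and 677 CPM (1.57, 1.46 to 1.68). Of 11 cytokine genes 3 were past 2-fold higher, with Tnf the highest at 103 and 414 CPM (2.01, 1.85 to 2.17). The ratios of Ccl4, Ccl3, Cxcl10 and Tnf were 0.86, 0.82, 0.88 and 1.20 among depth-matched members. In other myeloid barcodes, 9 of 15 chemokines were past 2-fold higher with a median of 1.59, where 54 of all 5129 genes (1.05%) were. None of 20 interferon-induced genes passed 2-fold in members, with a median of 0.53. Of these, 18 had a ratio above 0, as did 4626 of all 7054 genes. Early response genes had a median of 0.72 and 3 of 18 past 2-fold, with Egr1 the highest (36.5 and 133 CPM, 1.86, 1.59 to 2.14). Among depth-matched members the interferon-induced list had 0 of 20 past 2-fold and a median of 0.20, and the early response list 4 of 17 and 0.56. There, 11 of the 20 interferon-induced genes had a ratio above 0, against 2733 of all 4781 genes.

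The lower side was led by Saa3 and Apoe. Saa3, an acute phase protein of macrophages, fell from 931 CPM in mIgG1 to 206 CPM in Ang2 Ab members (−2.18, −2.29 to −2.07), and the ratio was −2.27 in depth-matched members and −1.83 in other myeloid barcodes. Apoe was at 29360 and 7878 CPM (−1.90, −1.92 to −1.88), with −1.61 in depth-matched members and −1.68 in other myeloid barcodes. Gpnmb (594 and 162 CPM, −1.87) and Fabp5 (1213 and 518 CPM, −1.23), genes of lipid-laden macrophages, and the lysozyme gene Lyz2 (18140 and 6021 CPM, −1.59) were also lower, but the ratios were 0.70, 0.14 and −0.74 among depth-matched members. Iqgap2, Stap1, Gdpd1, Sgsh, Apoc1 and Fbxo32 completed the 10 lowest, with ratios between −1.86 and −1.57. MHC class II had no gene past 2-fold among members (median −0.15), whereas 5 of 9 were past 2-fold lower among depth-matched members (median −1.40). H2-Aa was at 2326 CPM in the 78 mIgG1 depth-matched members, of which 23.1% held markers of plasmacytoid dendritic cells, and at 780 CPM in the 187 of Ang2 Ab. Without the barcodes with plasmacytoid dendritic cell markers the median was −1.32, an alternative chosen after seeing the data.

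Homeostatic genes differed less than chemokines in this pair, with 6 of 30 past 2-fold higher in Ang2 Ab members and a median of 0.63. Fcrls (140.3 and 425 CPM, 1.60, 1.46 to 1.74) and the fructose transporter Slc2a5 (7.71 and 29.3 CPM, 1.93, 1.34 to 2.56) were the highest. Among depth-matched members 2 of 30 were past 2-fold and the median was 0.09, close to the 0.06 of all 4781 genes. Depth-matched members were chosen in both libraries by the same minimum of homeostatic gate transcripts at 1 depth. Their homeostatic levels, here and in the pairs below, therefore cannot show whether these genes differed apart from that choice. C1qa was at 6353 and 6739 CPM, and C1q differed by less than 2-fold in both versions.

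**Figure D4:**
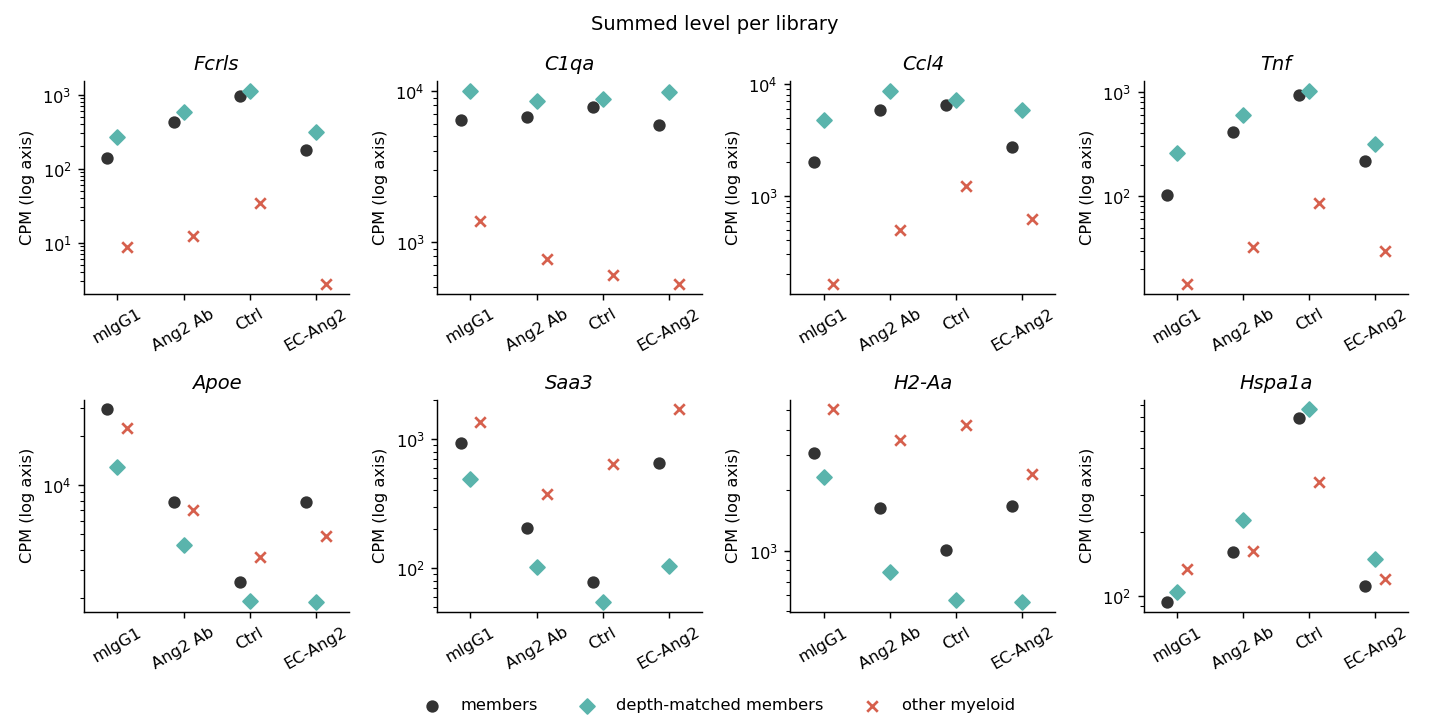
Level of 8 genes (y axes, CPM on log axes) in members, depth-matched members and other myeloid barcodes of each library (x axes), 1 point per group. Fcrls, C1qa, Ccl4 and Tnf were higher in members than in other myeloid barcodes of every library, Apoe was highest in mIgG1 in all 3 groups (29360 CPM in members), and Hspa1a was highest in Ctrl in all 3.

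Endothelial expression of Ang2 was addressed by the EC-Ang2 library against Ctrl. Of 6818 genes, 142 (2.08%) were at least 2-fold higher in EC-Ang2 members and 396 (5.81%) at least 2-fold lower, with a median log2 ratio of −0.07. Among depth-matched members, 128 of 6233 (2.05%) were higher and 581 (9.32%) lower, with 41 barcodes and 362012 UMIs on the EC-Ang2 side. Monocyte transcripts were present in 53.5% of EC-Ang2 and 18.7% of Ctrl members.

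The 10 genes with the highest ratios in EC-Ang2 members were Pf4, Fcor, F7, Saa3, Chil3, Ecm1, Sash1, Ms4a7, F13a1 and Acp5, from 3.55 to 2.80 on the log2 scale. Saa3 was at 78.2 CPM in Ctrl and 654 CPM in EC-Ang2 members (3.06, 2.92 to 3.21), and Chil3 at 179 and 1423 CPM (2.99, 2.90 to 3.09). Their ratios in other myeloid barcodes of the same libraries were 1.40 and 2.74. Pf4, a platelet and border macrophage chemokine, was at 7.43 and 86.8 CPM in members (3.55, 3.09 to 4.02). Depth-matched EC-Ang2 members held no Pf4 or F13a1 UMI, and at 362012 UMIs a difference from the 3.12 and 10.4 CPM of Ctrl could not be read. The ratios of Saa3 and Chil3 there were 0.94 (0.42 to 1.43) and 0.53 (0.04 to 0.98). Monocyte markers had 5 of 12 genes past 2-fold higher in members, and border macrophage markers 2 of 4. These lists summed to 7332 and 382 CPM in EC-Ang2 members and 3076 and 126 CPM in Ctrl members, and to 1381 and 35.9 CPM against 1616 and 87.6 CPM in depth-matched members.

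Homeostatic genes were lower in EC-Ang2 members, with 19 of 30 past 2-fold, 0 higher and a median of −1.18. Fcrls was at 970 CPM in Ctrl and 182 CPM in EC-Ang2 (−2.42, −2.60 to −2.24) and Cx3cr1 at 630 and 298 CPM (−1.08, −1.23 to −0.94). Among depth-matched members, 5 of 30 were past 2-fold lower with a median of −0.66, and 27 of 30 had a ratio below 0. Fcrls remained the lowest there (1133 and 309 CPM, −1.87), while Cx3cr1 had −0.55. In other myeloid barcodes 2 of 18 homeostatic genes were past 2-fold lower, with Fcrls at −3.62, where 87 of all 5196 genes (1.67%) were. C1qa was at 7750 and 5927 CPM in members and at 8820 and 9781 CPM in depth-matched members, less than 2-fold apart in both.

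Early response and heat shock genes were lower in EC-Ang2 members in both versions, with 10 of 18 past 2-fold in members (median −1.16) and 14 of 18 in depth-matched members (median −1.53), and all 18 had a ratio below 0 in each. Hspa1a, an inducible Hsp70, was at 688 CPM in Ctrl and 111 CPM in EC-Ang2 members (−2.63, −2.87 to −2.40), Jun at 1305 and 237 CPM (−2.46, −2.62 to −2.30) and Egr1 at 308 and 64.8 CPM (−2.25, −2.56 to −1.95). In other myeloid barcodes 1 of 17 was past 2-fold lower, where 87 of all 5196 genes (1.67%) were, and 13 of 17 had a ratio below 0. The median of the list there was −0.41 against 0.04 for all genes. Hspa1a and Hspa1b are near-identical copies between which reads can be divided, and Hspa1b had −2.43.

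Other lower genes in EC-Ang2 members included Hbb-bs, a haemoglobin gene (141 and 8.54 CPM, −4.05), Adamts1 (173 and 13.5 CPM, −3.68), Gp9, Asb2, Rcan1, Gem, Mid1, Ddah2, S100a9 (1366 and 213 CPM, −2.68) and Nav2. The free RNA share would give 62.8% of the Hbb-bs level in Ctrl members, and more than the level seen in each of the 3 other libraries. The ratios of Adamts1, Gem and Rcan1 were −3.58, −2.81 and −2.35 in depth-matched members. Tnf was at 938 and 218 CPM (−2.11, −2.28 to −1.94) and at 1024 and 318 CPM in depth-matched members (−1.69). Of 13 chemokines, 3 were past 2-fold lower and 1 higher, Cxcl1 at 1.83, and 7 had a ratio below 0 and 6 above. The lower ones were Ccl3, Ccl12 and Ccl4 (−1.48, −1.41 and −1.25), which were within 2-fold among depth-matched members (−0.47, −0.52 and −0.31). Of 11 chemokines measured among depth-matched members, 1 was past 2-fold lower, Cxcl2 at −1.84, and 1 higher, Cxcl9 at 1.19 (median −0.47). Among damage-associated genes, 7 of 25 were past 2-fold higher and 0 lower (median 0.33), but 2 of 22 among depth-matched members (median 0.23). Cst7 (108 and 283 CPM, 1.39, 1.22 to 1.56) and Spp1 (679 and 2215 CPM, 1.71, 1.64 to 1.77) kept their direction among depth-matched members, at 1.75 and 1.02. Apoe did not, at 1.63 in members and −0.03 in depth-matched members. MHC class I and II had medians of 0.31 and 0.12, with 1 of 16 and 0 of 11 genes past 2-fold, and 0.37 and 0.10 among depth-matched members. None of 20 interferon-induced genes passed in members (median −0.01) and 3 of 20 were past 2-fold higher in depth-matched members (median 0.56), led by Iigp1 (115 and 323 CPM, 1.49).

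**Figure D5:**
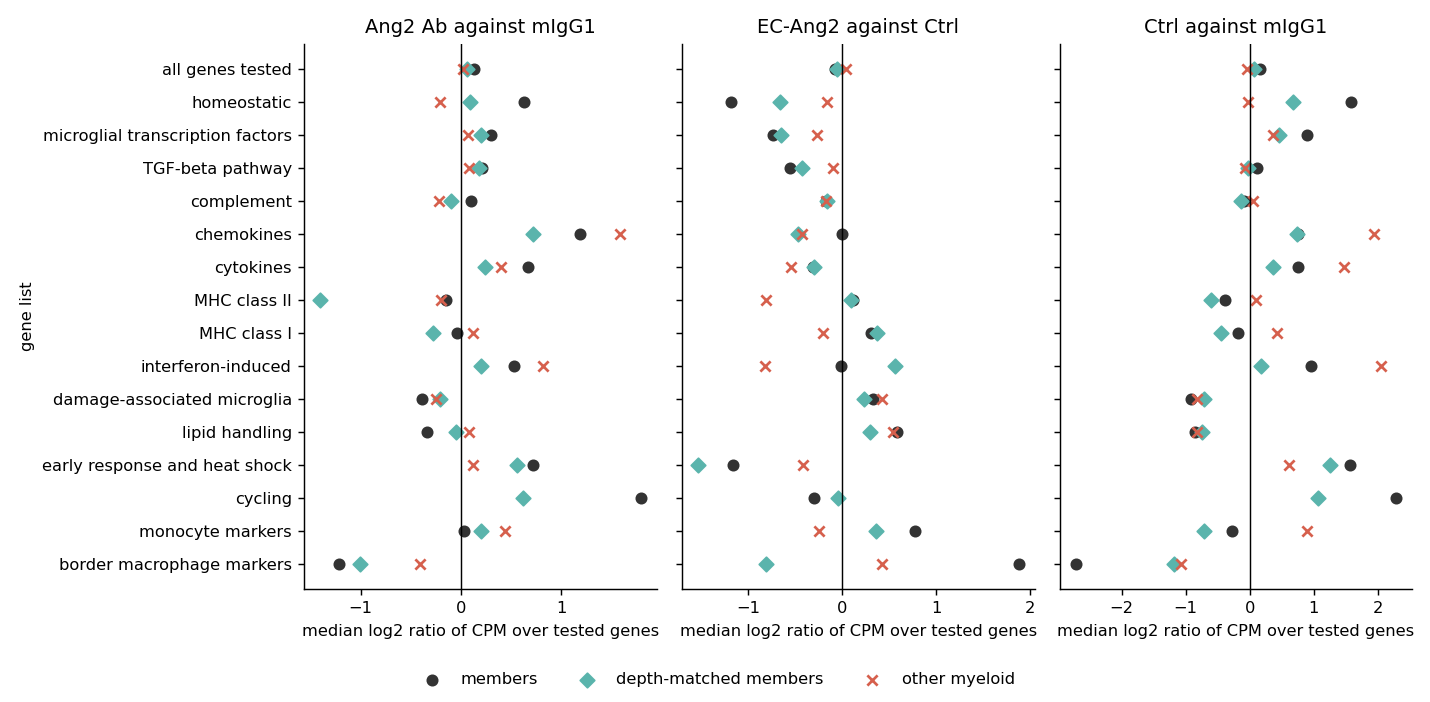
Median log2 ratio of CPM (x axis) over the tested genes of each list (y axis) for 3 pairs of libraries, in members, depth-matched members and other myeloid barcodes. Early response genes lay below 0 for EC-Ang2 against Ctrl in members and depth-matched members (−1.16 and −1.53), whereas the cycling list for Ang2 Ab against mIgG1 moved from 1.80 in members to 0.62 in depth-matched members.

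The 2 control libraries were set side by side to show how far libraries differed where Ang2 was neither blocked nor overexpressed. Whether Ang2 itself was at the same level in both was not tested. They share the Ctrl and mIgG1 members with the comparisons above. They differ in strain, transgene, antibody treatment, doxycycline food before birth, age, day and toxin dose. Of 7048 genes, 669 (9.49%) were at least 2-fold higher in Ctrl members and 296 (4.2%) at least 2-fold lower than in mIgG1, with a median log2 ratio of 0.16. Both counts were larger than those of Ang2 Ab against mIgG1 (210 and 62). They were also larger than those of EC-Ang2 against Ctrl read with Ctrl on the same side, which had 396 genes higher and 142 lower in Ctrl. With the gate read at 2000 UMIs, this last order turned for both counts. Ctrl then had 308 genes higher and 140 lower than EC-Ang2, and 223 higher and 115 lower than mIgG1. Among depth-matched members 507 of 6677 (7.59%) were higher and 228 (3.41%) lower in Ctrl than in mIgG1, and 581 (9.32%) higher and 128 (2.05%) lower in Ctrl than in EC-Ang2. In other myeloid barcodes 314 of 5256 genes (5.97%) were higher and 154 (2.93%) lower in Ctrl than in mIgG1.

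Monocyte transcripts were present in 18.7% of Ctrl and 59.3% of mIgG1 members, and in 10.3% and 37.2% of depth-matched members. Markers of plasmacytoid dendritic cells were present in 2.65% and 10.1% of members, and in 2.27% and 23.1% of depth-matched members. Ctrl members had the higher level of homeostatic genes, with 22 of 30 past 2-fold (median 1.58) and 11 of 30 in depth-matched members (median 0.67). Early response genes were past 2-fold higher for 13 of 18 in both versions (medians 1.57 and 1.25). Jun was at 168 CPM in the mIgG1, 353 in the Ang2 Ab, 1305 in the Ctrl and 237 in the EC-Ang2 members, and Hspa1a at 93.3, 162, 688 and 111 CPM, so that Ctrl stood above the 3 others for both. All 12 cycling genes were past 2-fold higher in Ctrl members (median 2.29) and 7 of 12 in depth-matched members (median 1.06). Hbb-bs, Hpgd, Adamts1, Gp9, Serpinf1, S100a9, Tagap, S100a8, Rtn1 and Tnf were the 10 highest, with log2 ratios from 4.85 to 3.19. S100a9 was at 83.8 CPM in mIgG1 and 1366 CPM in Ctrl members, and at 238 and 6188 CPM in other myeloid barcodes of the same libraries. Its log2 ratio was 4.03 in members and 1.92 in depth-matched members.

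On the lower side of this pair stood Fabp4, Ms4a7, Fabp5, Plxnc1, Gpnmb, Pf4, Fcor, F7, Spink2 and Saa3, from −4.61 to −3.57. The free RNA share would give 1120% of the Fabp4 level in mIgG1 and 5610% in Ctrl, so that the estimate is far too high for this gene. Damage-associated genes had 11 of 25 past 2-fold lower in Ctrl members (median −0.92) and 10 of 25 in depth-matched members (median −0.71). Apoe was at 2532 CPM in Ctrl and 29360 CPM in mIgG1 (−3.54, −3.56 to −3.51) and at 1920 and 12910 CPM in depth-matched members. Cst7 (−1.40) and Axl (−1.63), a receptor for Gas6, were lower as well, with −2.20 and −1.96 among depth-matched members. Cd74, the invariant chain of MHC class II, was at 3970 and 12910 CPM (−1.70, −1.72 to −1.68), and 4 of 11 MHC class II genes were past 2-fold lower, as were 5 of 11 in depth-matched members. Interferon-induced genes had 9 of 20 past 2-fold higher in Ctrl members (median 0.95) but 1 of 20 in depth-matched members (median 0.18).

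Members of the same library varied widely among themselves. At 2000 UMIs, Apoe had a median of 49 UMIs per member in mIgG1 (highest 408), 5 in Ang2 Ab (highest 149), 1 in Ctrl (highest 150) and 4 in EC-Ang2 (highest 91). Ccl4 had medians of 0, 5, 3 and 1 UMIs and highest values of 67, 97, 114 and 53, so that the median member held far fewer UMIs than the highest.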

How the data were processed

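The 4 libraries, 1 per condition, were made with the 10x Chromium 3′ v2 kit. The deposited values are UMI counts per gene and barcode, which the authors obtained with Cell Ranger 2.1.1 on mm10 (the submitters' processing notes also name Seurat 2.3.4). The deposited matrices list all barcodes, with no cell calling, so the cells were chosen here by the limits given with the members. The members and gene lists were chosen with earlier results of these data known. Counts were summed per library and group, scaled to CPM and compared as log2 ratios, with exact binomial intervals (95%) that cover counting error only. Precision followed the UMIs behind each group, which in members were 3892225 in the mIgG1, 3850918 in the Ang2 Ab, 8081231 in the Ctrl and 1405173 in the EC-Ang2 library. Against other myeloid barcodes a gene counted as higher or lower when past 2-fold the same way in all 4 libraries, among genes with a UMI in 10% of members or of other myeloid barcodes in every library. Between libraries it counted when past 2-fold, among genes with 50 UMIs in both together and a UMI in 10% of members of 1 of them. The 16 gate genes were left out. A count of 0 was set to 3 for a ratio. Named genes were the 10 highest and 10 lowest of each comparison, the extremes of each list and those past 2-fold, the 5 gate genes, Angpt2, Tek, Itga5 and Itgb1. Others, such as Apoe, Aldoc, Il7r, Irf8 and Jun, were named after their values were seen. Scrublet scores (Scanpy 1.11.5) were used to remove 0.8% of barcodes per 1000 as an alternative, and doublets were otherwise kept. Barcodes with 1 to 100 UMIs served as near-empty droplets. Alternatives varied the gate, depth, doublets, cycling, monocyte and plasmacytoid dendritic cell transcripts, free RNA, scaling, summing and the filter. Python 3.11.15, NumPy 2.4.6, SciPy 1.17.1 and pandas 2.3.3 were used, and the summing and interval steps were tested on simulated data. Some genes are not reported here.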

Additional observations from a re-analysis of the deposited data

How the results depend on the processing

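The share of members kept its order, with Ctrl highest and EC-Ang2 lowest, under every alternative below, while its size followed the gate. In mIgG1, Ang2 Ab, Ctrl and EC-Ang2 it was 27.8%, 22.2%, 53.3% and 13.4% with a 5-gene sum of at least 2, so that mIgG1 then stood above Ang2 Ab. It was 8.05%, 11.6%, 41.9% and 3.71% with at least 6, and 3.77%, 7.66%, 37.0% and 2.01% with the gate read at 2000 UMIs. It was 5.2%, 7.86%, 37.7% and 2.74% without members that held monocyte transcripts, and 3.05%, 6.65%, 36.2% and 1.9% for depth-matched members. Without cycling cells it was 11.8%, 10.7%, 38.5% and 4.18%, so that mIgG1 stood above Ang2 Ab there too. This alternative called cycling cells on all UMIs of a barcode, not at 2000 UMIs, so that a deep barcode was more easily removed. With at least 1000 UMIs mIgG1 and Ang2 Ab both had 11.8%, and with at least 4000 UMIs Ang2 Ab had 15.6%.

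Against other myeloid barcodes, the counts of higher and lower genes (217 and 86) became 91 and 21 with a sum of at least 2, 326 and 138 with at least 6, 138 and 158 at 2000 UMIs, 356 and 231 without monocyte transcripts, 414 and 248 for depth-matched members, 437 and 259 when these also lacked plasmacytoid dendritic cell transcripts, and 924 and 189 with no filter. At 2000 UMIs without monocyte transcripts, 171 were lower. Leaving out 1 library at a time gave 219 to 430 higher and 86 to 186 lower genes. The 430 and 186 were those without mIgG1, and leaving out any other library gave at most 248 and 98.

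For Ang2 Ab against mIgG1 (210 higher, 62 lower), higher counts were 47 at 2000 UMIs, 45 there without monocyte transcripts, 106 for depth-matched members, 110 when these also lacked plasmacytoid dendritic cell transcripts and 2011 with no filter. Lower counts were 34 with a sum of at least 2, 31 at 2000 UMIs, 24 there without monocyte transcripts, 96 after subtraction of free RNA, 101 with median-of-ratios scaling, 39 for depth-matched members without plasmacytoid dendritic cell transcripts and 1140 with no filter. For EC-Ang2 against Ctrl (142 and 396), higher counts were 240 with a sum of at least 2, 267 with the mean of CPM over cells and 3529 with no filter, and 1364 were lower with no filter. For Ctrl against mIgG1 (669 and 296), the counts were 223 and 115 at 2000 UMIs, 266 and 130 there without monocyte transcripts, and 2051 and 2774 with no filter. Median-of-ratios scaling moved the median of all genes from 0.19 to −0.04 against other myeloid barcodes, from 0.13 to −0.01 for Ang2 Ab against mIgG1 and from 0.16 to −0.01 for Ctrl against mIgG1.

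Ratios past 2-fold turned direction as follows, and the cause was not tested. For Ang2 Ab against mIgG1, Apoc1 and Rrm2 had 0.08 and −0.09 at 2000 UMIs and 0.87 and −0.75 there without monocyte transcripts. Top2a had −0.97 without cycling cells, but it is itself among the genes by which those cells were chosen, so that this value is not informative. Fabp5, Fbxo32 and Gpnmb had 0.14, 0.07 and 0.70 in depth-matched members. They had 0.03, 0.24 and 0.67 when these also lacked plasmacytoid dendritic cell transcripts. For EC-Ang2 against Ctrl, Asb2 had 0.55 at 2000 UMIs, and Asb2, Ddah2, Gp9 and Nav2 had 0.97, 0.30, 1.47 and 0.70 there without monocyte transcripts. F13a1 and Pf4 had −0.05 and −1.84 without members that held monocyte transcripts. Acp5, Apoe, F13a1, F7 and Ms4a7 had −0.88, −0.03, −0.33, −0.17 and −1.0 in depth-matched members and −0.89, −0.02, −0.31, −0.18 and −1.01 when these also lacked plasmacytoid dendritic cell transcripts. Depth-matched EC-Ang2 members held 0 to 3 UMIs of Acp5, F13a1, F7 and Ms4a7, so that counting error alone is wide there, and a count of 0 was set to 3. List medians also turned where the genes measured changed. The border macrophage list (1.88 over 4 genes) had −0.81 and −0.75 in these versions, where Stab1 alone was left. The dendritic cell list held Fscn1 alone (−1.72) and had 1.10 over 10 genes with no filter, and the astrocyte list against other myeloid barcodes (3.02 over 2 genes) had −0.06 with a sum of at least 2 and −0.30 without cycling cells, over 1 gene in both. Of 111 list medians, 50 changed sign under at least 1 alternative, and 47 of these were within 2-fold. Among these, interferon-induced genes went from 0.95 to −0.18 for Ctrl against mIgG1 at 2000 UMIs without monocyte transcripts, and stood at −0.01 for EC-Ang2 against Ctrl, where 11 alternatives turned the sign. MHC class II for EC-Ang2 against Ctrl went from 0.12 to −0.06 with a sum of at least 2, and chemokines against other myeloid barcodes from 0.17 to −0.37 with no filter. No paired analysis was possible because each condition has 1 library. The single library of each condition limits every comparison between conditions.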
